A study of Homo sapiens with 13 samples.

Results

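The cartilage peaks of this lentiviral reporter assay were 998 genomic windows of 200 bp, taken as the elements whose names mark them as cartilage controls and not as scrambled versions of them. They made up 998 of 7236 elements counted in TC28a2 and 998 of 9769 counted in SW1353. The names give each window an hg19 position and a peak number. No source used here names the assay or tissue sample behind the peaks, so they are taken as cartilage peaks from their names alone, and that the chromatin was open there was not checked. No chondrocyte marker can be read from a reporter count, and the cell identity was not checked.

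In the study, variants linked to adolescent idiopathic scoliosis were tested for regulatory activity, and the peaks travelled in the same reporter library. TC28a2 is an immortalized human chondrocyte line and SW1353 a human chondrosarcoma line. Each line gave 3 DNA and 3 RNA libraries from cells carrying the scoliosis lentiMPRA library, isolated together after an infection of 48 hours. All 4 groups carried the library, none had another treatment, and no uninfected cells were analysed here. A 13th sample, which links barcodes to elements, was not used. No peak held a tested variant position, the nearest being 196 bp away. Nothing in the labels says that the replicates were separate cultures, so p-values measure the spread between these libraries, which may be technical.

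In a lentiviral massively parallel reporter assay, a tested sequence is placed beside a minimal promoter and drives a transcript that carries a barcode, and the virus inserts the construct into the genome. The RNA count of a sequence over its DNA count then measures how strongly it drives transcription outside its own chromosomal setting. Open chromatin in cartilage marks stretches of DNA that are free of tightly packed nucleosomes, mostly promoters and enhancers. Promoters of genes that every cell needs are open in nearly all tissues, while the enhancers of matrix genes such as those for collagen II and aggrecan are bound by SOX family factors in chondrocytes.

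Activity is given below as log2 of RNA over DNA. The median of 191 scrambled variant-site sequences of the same line was set to 0, so that 1 is a doubling over that median. Of the 998 peaks, 991 had at least 10 DNA barcodes in every replicate of both lines and were tested. The other 7 had fewer in both lines and are not described further. The median peak was counted on 353 to 361.5 DNA and 406 to 411 RNA barcodes per replicate in TC28a2, and on 393 to 397 DNA and 299 to 300 RNA barcodes in SW1353. Total counts over all elements were 5523658 to 5738307 in DNA and 22048832 to 22212124 in RNA of TC28a2, and 15582658 to 15626361 and 37571404 to 37631975 in SW1353.

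A pair of features of the files touch every result. The files stop at 500 barcode positions per element and replicate. In TC28a2, 649 of the 998 peaks reached position 500 in both DNA and RNA, 84 in RNA alone and 8 in DNA alone. In SW1353, 487 reached it in both, 180 in DNA alone and 12 in RNA alone. Such peaks lost an unknown number of barcodes, which need not be the same share in DNA and RNA. The mean count per barcode, RNA over DNA, does not add up barcodes and is given for many of the peaks below beside the sums. It averages over the barcodes counted in each library, so barcodes with DNA and no RNA do not lower it. The median peak had fewer RNA than DNA barcodes in SW1353 and more in TC28a2, so the measure need not act alike in the lines.

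The order of values against the column names was also checked over the 998 peaks. From position 51 to 200 of TC28a2 DNA, counts named replicate 3 correlated with those named replicate 1 of the next position (r = 0.171) and hardly with replicate 1 of the same position (r = 0.0523). The same shift appeared in TC28a2 RNA (r = 0.169 against 0.066) and in SW1353 DNA (r = 0.158 against 0.053). SW1353 RNA did not show this shift, with r = -0.0968 against the next position and 0.0307 at the same one. Its same-position r was also negative between replicates 1 and 2 (-0.0972) and 2 and 3 (-0.0992). In TC28a2 DNA and RNA and in SW1353 DNA these pairs gave 0.16 to 0.18. Barcode positions are thus not shown to match between the replicates of SW1353 RNA. These correlations run over barcodes of peaks that share libraries and are given as a description. Replicates as named in the files may thus hold values of more than 1 library. The spread between them may then be partly a spread between sets of barcodes, which was not tested.

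Beside the strongest peaks, as beside most of the lowest named ones, lay genes placed from general knowledge of hg19. How widely these genes are expressed was not examined. The 250 bases before the start of 4 genes beside strong peaks are shown as examples. Their peaks were among the 8 highest in TC28a2. So were those at RC3H1, RBM33, C1orf43/UBAP2L and DDX31/GTF3C4, whose promoters are not printed. Those of RBM33 and GTF3C4 hold none of the motifs listed below. They come from RefSeq on GRCh38.p14, another build than the peaks, so they are the promoters of the named genes and not the tested windows. The stretches are chr13:45341184-45341433 on the minus strand (TPT1) and, on the plus strand, chr17:81977379-81977628 (ASPSCR1), chr2:177212544-177212793 (HNRNPA3) and chr11:65712002-65712251 (KAT5). Capitals mark matches on either strand to any of 8 motifs: ETS (CCGGAAG), NRF1 (GCGCATGCG), YY1 (AAGATGGC), CRE (TGACGTCA), SP/KLF (GGGGCGGGG), the TATA box (TATAAA), AP-1 (TGANTCA) and the CCAAT box (CCAAT).
TPT1: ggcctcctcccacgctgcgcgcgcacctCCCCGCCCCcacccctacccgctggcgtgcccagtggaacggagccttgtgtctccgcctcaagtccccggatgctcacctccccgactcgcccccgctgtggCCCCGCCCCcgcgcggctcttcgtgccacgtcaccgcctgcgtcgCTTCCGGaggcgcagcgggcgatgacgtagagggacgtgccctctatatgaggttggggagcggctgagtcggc
ASPSCR1: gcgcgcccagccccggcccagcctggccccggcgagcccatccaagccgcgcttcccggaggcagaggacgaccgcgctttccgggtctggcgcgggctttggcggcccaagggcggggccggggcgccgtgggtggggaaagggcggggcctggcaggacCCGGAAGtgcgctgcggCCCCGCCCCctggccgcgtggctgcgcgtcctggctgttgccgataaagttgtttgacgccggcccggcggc
HNRNPA3: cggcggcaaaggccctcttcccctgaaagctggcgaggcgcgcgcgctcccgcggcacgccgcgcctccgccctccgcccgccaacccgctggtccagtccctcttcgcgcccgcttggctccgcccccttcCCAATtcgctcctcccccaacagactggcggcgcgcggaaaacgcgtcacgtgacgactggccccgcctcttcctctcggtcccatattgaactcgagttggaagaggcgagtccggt
KAT5: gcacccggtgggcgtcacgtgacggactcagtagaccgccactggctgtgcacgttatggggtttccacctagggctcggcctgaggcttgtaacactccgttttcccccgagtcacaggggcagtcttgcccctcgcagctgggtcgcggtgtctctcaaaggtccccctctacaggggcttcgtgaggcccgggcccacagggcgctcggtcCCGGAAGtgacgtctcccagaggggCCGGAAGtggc

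TPT1, which encodes translationally controlled tumor protein, has 2 SP/KLF matches and 1 ETS match in this stretch, and KAT5, a histone acetyltransferase gene, has 2 ETS matches. ASPSCR1, whose product tethers glucose transporter vesicles, has 1 of each kind. The promoter of HNRNPA3, an RNA-binding protein gene, holds 1 CCAAT box and no other listed motif. At the other end, the promoters of LRRC8A, a subunit of the volume-regulated anion channel, and of RAD23B, a DNA repair factor, are shown because the peaks at these genes had the lowest activities in TC28a2. They lie on the plus strand of GRCh38.p14 at chr9:128881883-128882132 (LRRC8A) and chr9:107283029-107283278 (RAD23B).
LRRC8A: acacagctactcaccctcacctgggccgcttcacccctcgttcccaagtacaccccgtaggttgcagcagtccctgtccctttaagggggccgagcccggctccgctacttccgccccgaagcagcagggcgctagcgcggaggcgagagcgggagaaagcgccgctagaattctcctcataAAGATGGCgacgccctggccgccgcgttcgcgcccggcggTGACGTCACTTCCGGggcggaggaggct
RAD23B: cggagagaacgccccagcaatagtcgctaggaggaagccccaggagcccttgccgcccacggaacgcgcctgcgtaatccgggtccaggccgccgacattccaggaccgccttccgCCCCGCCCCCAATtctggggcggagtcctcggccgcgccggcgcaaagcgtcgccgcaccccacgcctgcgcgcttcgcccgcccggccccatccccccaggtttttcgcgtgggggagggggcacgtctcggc

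The LRRC8A promoter carries 1 YY1 match and 1 CRE match directly followed by 1 ETS match, and in RAD23B the last base of an SP/KLF match is the first of a CCAAT box. Of 15 genes named beside the highest peaks, 13 had a RefSeq promoter, and of 7 beside the lowest, 6 did. RefSeq lists 1 start per gene here, which need not be the start at the peak, and the RC3H1 entry (28.4% GC, no CpG) was unlike the others. Promoters at the highest peaks had a median of 70% GC and 28 CpG dinucleotides, those at the lowest 70.2% and 31, and all 27305 RefSeq promoters of this length 58% and 11. An ETS match stood in 5 of the 13, 2 of the 6 and 8.82% of all promoters. The CRE stood in 0, 2 and 1.77%, and the YY1 motif in 0, 2 and 1.37%. At the lowest peaks, both ETS, both CRE and both YY1 matches come from KYAT1 and LRRC8A, whose promoters overlap on opposite strands. Each such pair is the same site read on both strands. SP/KLF was found in 3, 1 and 15.4%, the CCAAT box in 2, 1 and 33.0%, the TATA box in 2, 0 and 11.1%, AP-1 in 1, 0 and 6.6%, and NRF1 in 0, 0 and 1.78%. A match is a string of letters and not a bound site, and the shares in so few genes were not tested.

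Most cartilage peaks drove more transcription than the median scrambled variant site in TC28a2. Scrambled versions of cartilage peaks were counted in SW1353 only, so the peaks could not be set beside them in TC28a2. By edgeR's quasi-likelihood test, fitted and adjusted over all elements of the line, 674 of 991 peaks were above the scrambled median and 33 below it (adjusted p under 0.05). Over all 7160 elements tested, 32.3% were called above and 2.71% below. All elements counted in the line had medians of 183 to 192 DNA and 229.5 to 232 RNA barcodes per replicate, fewer than the peaks. The median standard error was 0.11 for peaks and 0.15 over all elements. The part of this in the shares called was not tested. The median peak stood at 0.58 and the quartiles at 0.25 and 1.03, beside a median of 0.28 over all elements. Activities ran from -1.80 to 2.88, 260 peaks were above 1 and 33 above 2, while 156 lay within 0.2 of 0. In 794 of the 998 peaks all 3 replicates were above 0 and in 53 all were below. This was not counted over all elements, whose median also lay above 0. The median SD between replicates was 0.17.

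The share of active peaks was larger still in SW1353. There 845 of 991 peaks were called above and 6 below by the same test, against 48.8% and 1.73% of 9681 elements. All elements counted there had medians of 219 to 221 DNA and 120 to 121 RNA barcodes per replicate, again fewer than the peaks. The median was 1.21, with quartiles at 0.69 and 1.76 and a median of 0.45 over all elements. The range was -1.61 to 3.35, 598 peaks were above 1, 174 above 2 and 14 above 3, and 61 lay within 0.2 of 0. All 3 replicates were above 0 in 905 peaks and below in 17, with a median SD of 0.17. These signs too were not counted over all elements, whose median was above 0.

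The SW1353 count depends on what is taken as scrambled. SW1353 also held scrambled versions of cartilage peaks, and with their median as 0, edgeR called 480 peaks above and 223 below, against 12.3% and 54.9% of all elements. By the mean count per barcode, tested with limma, 477 peaks were above and 3 below, with a median of 0.47, against 13.6% and 0.578% of all elements. The TC28a2 count by that measure was 645 above and 11 below, with a median of 0.55, against 21.1% and 1.38% of all elements. Among peaks below position 500 in the line, 126 of 250 were above and 13 below in TC28a2, against 21.1% and 1.78% of all elements so fitted. In SW1353, 198 of 312 were above and 4 below, against 34.9% and 1.47%.

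The same peaks tended to be strong in both lines. In both, 659 peaks were called above the scrambled variant-site median, and 6 were called below in both. Over all elements tested in each line, 32.3% were above in TC28a2 and 48.8% in SW1353, and 2.71% and 1.73% below. Joint calls over all elements were not counted, so the agreement is not shown to be particular to the peaks. A further 178 were above in SW1353 with no call in TC28a2, 15 were above in TC28a2 with no call in SW1353, and 106 had no call in either. Another 8 peaks were called below in TC28a2 and above in SW1353, and 19 below in TC28a2 with no call in SW1353. Of the 100 highest peaks of each line, 72 were shared. Between the lines, Pearson's r was 0.87 and Spearman's rho 0.85 across the 991 peaks, and 0.93 and 0.88 across the 247 peaks below position 500 in both. These points share the design of the library and, within a line, its libraries.

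**Figure D1:**
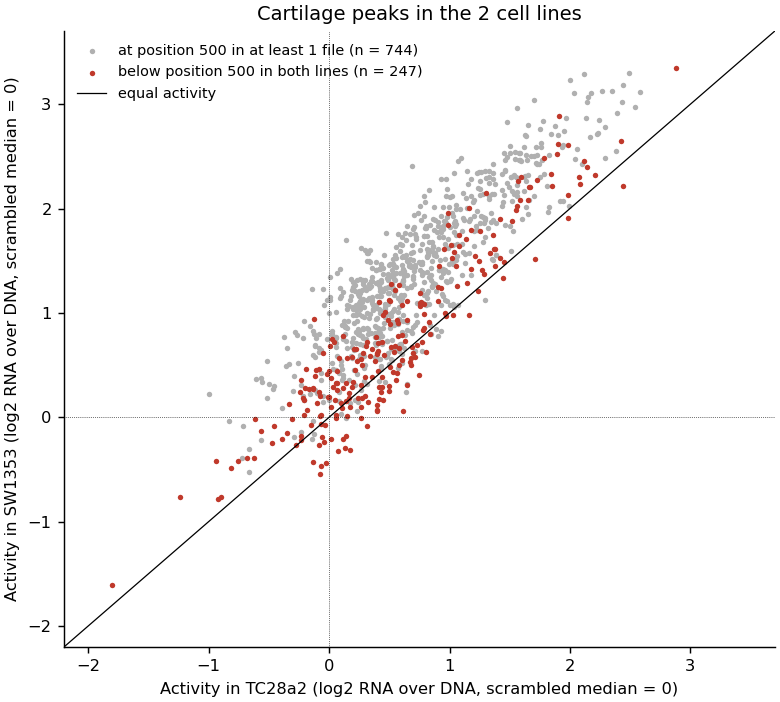
Activity of each of the 991 tested cartilage peaks in TC28a2 (x axis) and SW1353 (y axis), as log2 RNA over DNA with the scrambled median at 0; each point is a peak, red where it stayed below barcode position 500 in both lines (247) and grey where it reached that position (744). The grey points lie mostly above the line of equal activity, and the red points lie closer to it.

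The highest peak of both lines lay at TPT1 (chr13:45915277-45915477). Its activities were 2.98, 2.85 and 2.84 in the replicates of TC28a2 and 3.42, 3.53 and 3.27 in those of SW1353. All 6 values lie far above 0, and the groups do not overlap. The fitted activity was 2.88 (SE 0.08, edgeR adjusted p = 2.03e-07) in TC28a2 and 3.35 (SE 0.08, edgeR adjusted p = 5.14e-09) in SW1353. These are folds of 7.38 and 10.2 over the scrambled variant-site median. The scrambled version of this peak itself stood at 1.41 in SW1353. The native peak stayed below position 500 in both lines. It had 222 to 238 DNA and 375 to 387 RNA barcodes in TC28a2, and 227 to 245 and 204 to 245 in SW1353.

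The second highest in SW1353 was the peak at HNRNPA3 (chr2:178077370-178077570). It gave 2.30, 2.72 and 2.47 in TC28a2 and 3.33, 3.61 and 3.12 in SW1353. Here too the lowest SW1353 value was above the highest TC28a2 value. The fitted activities were 2.49 (SE 0.10) and 3.30 (SE 0.09), with edgeR adjusted p = 3.54e-07 and 8.08e-09.

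RC3H1 encodes Roquin, which promotes decay of immune messenger RNAs. The peak near it (chr1:173991520-173991720) gave 2.90, 2.50 and 2.37 in TC28a2 and 3.39, 2.81 and 3.30 in SW1353. The groups overlap, since 1 TC28a2 value is above the lowest SW1353 value. Fitted activities were 2.58 (SE 0.11) and 3.11 (SE 0.11).

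The peak at ASPSCR1 (chr17:79935223-79935423) followed in TC28a2 with 2.57, 2.41 and 2.66, and gave 3.14, 2.98 and 2.96 in SW1353. RBM33 encodes an RNA-binding protein, and its peak (chr7:155437186-155437386) gave 2.44, 2.60 and 2.32, against 3.28, 3.31 and 3.11. In neither case did the lines overlap.

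The next 3 in TC28a2 lay at gene pairs or single starts. DDX31, an RNA helicase, and GTF3C4, a subunit of an RNA polymerase III factor, share a start region (chr9:135545708-135545908), which gave 2.43, 2.41 and 2.48 in TC28a2 and 3.01, 3.07 and 3.13 in SW1353. KAT5 (chr11:65479601-65479801) gave 2.64, 2.13 and 2.51 against 2.75, 2.85 and 2.50. The lines overlapped at KAT5 and not at DDX31/GTF3C4.

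The start region of C1orf43 and UBAP2L, the latter a stress granule protein (chr1:154193335-154193535), was high in TC28a2 (2.66, 2.09 and 2.60) and lower in rank in SW1353 (2.60, 2.36 and 1.84). Its rank fell from 6 to 121. The difference between lines was -0.20 (SE 0.21) and was not called (edgeR adjusted p = 0.712).

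Another 4 peaks were among the 8 highest in SW1353 only. At METTL23 and JMJD6, which encode a methyltransferase and a hydroxylase (chr17:74722652-74722852), the replicates were 1.92, 2.18 and 2.28 in TC28a2 and 3.26, 3.42 and 3.35 in SW1353. At DNAJB2, a chaperone gene (chr2:220143954-220144154), they were 2.15, 1.82 and 2.06 against 3.24, 3.28 and 3.34. At both, each SW1353 value lay above each TC28a2 value.

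BCL2L13, a mitochondrial member of the BCL2 family, had a peak (chr22:18121319-18121519) at 2.35 in TC28a2 and 3.13 in SW1353. GDI2 regulates the cycling of Rab proteins, and its peak (chr10:5855338-5855538) stood at 2.27 and 3.12. By the mean count per barcode the TPT1 peak was at 2.38 and 2.31, HNRNPA3 at 2.49 and 2.36 and DNAJB2 at 1.97 and 2.27, so the order of the lines seen in the sums was not kept at the first 2. The 100 highest peaks by sum held 80 of the 100 highest by that measure in TC28a2 and 88 in SW1353.

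**Figure D2:**
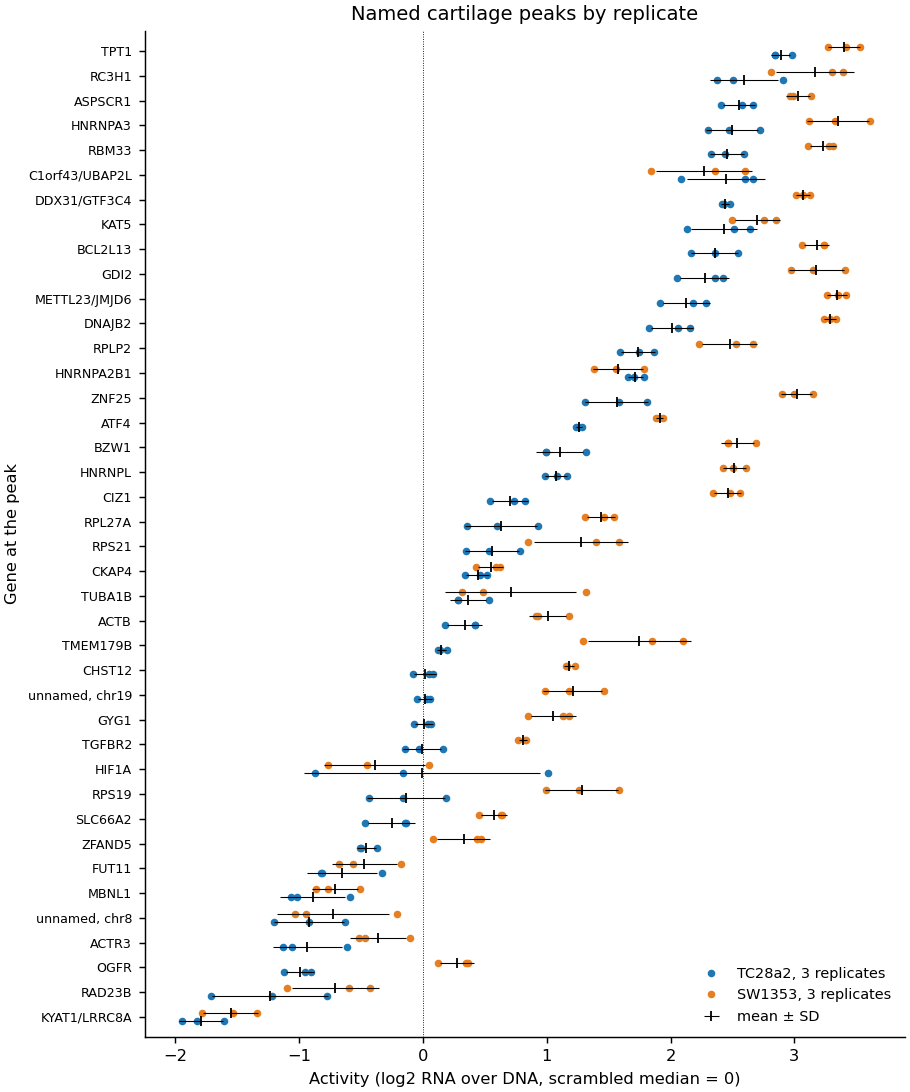
Activity (x axis, log2 RNA over DNA, scrambled median at 0) of the 40 named cartilage peaks, ordered by TC28a2; points are the 3 replicates of each line, and black bars the mean ± SD. TPT1 is at the top in both lines, KYAT1/LRRC8A is at the bottom in both, and TMEM179B, RPS19 and OGFR show lines that stand apart.

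Some peaks transcribed less than the median scrambled variant site, and the lowest was the same in both lines. It lay at the shared start of KYAT1, a kynurenine aminotransferase gene, and LRRC8A (chr9:131644438-131644638). Replicates were -1.61, -1.83 and -1.95 in TC28a2 and -1.34, -1.79 and -1.53 in SW1353. The lines overlap, and all 6 values are far below 0. The fit gave -1.80 (SE 0.15, edgeR adjusted p = 1.96e-05) and -1.61 (SE 0.16, edgeR adjusted p = 2.23e-05). DNA barcodes numbered 225 to 293 and RNA barcodes 137 to 151 per replicate in TC28a2, and 282 to 311 and 64 to 70 in SW1353, with no library at position 500. By the mean count per barcode it stood at -0.78 and -0.63.

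At RAD23B (chr9:110045872-110046072) the replicates were -0.78, -1.71 and -1.22 in TC28a2 and -0.43, -0.60 and -1.10 in SW1353. Both lines were called below, at -1.24 (SE 0.20, edgeR adjusted p = 0.00129) and -0.76 (SE 0.19, edgeR adjusted p = 0.00811), and they overlap. Per barcode the RAD23B peak was at -0.57, called, in TC28a2 and -0.50, not called, in SW1353 (limma). The summed counts differed between lines at OGFR, the opioid growth factor receptor gene (chr20:61436330-61436530). The peak gave -0.96, -1.12 and -0.90 in TC28a2 and 0.12, 0.35 and 0.37 in SW1353. The difference of 1.25 (SE 0.17) was called (edgeR adjusted p = 0.000228), but SW1353 itself was not called (edgeR adjusted p = 0.161). Per barcode the peak was below 0 in both lines, at -0.55 and -0.35, with a difference of 0.24. This peak was at position 500 in all 4 groups.

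The peak at ACTR3, a subunit of the actin-nucleating complex (chr2:114647840-114648040), stood at -0.94 (SE 0.20) in TC28a2 and -0.42 (SE 0.22) in SW1353, called only in the first. MBNL1 encodes a splicing regulator, and its peak (chr3:151986724-151986924) was called in both, at -0.90 (SE 0.16) and -0.77 (SE 0.18). Per barcode it was at -0.46, called, in TC28a2 and -0.42, not called, in SW1353 (limma). FUT11, a fucosyltransferase gene, had a peak (chr10:75532714-75532914) at -0.66 (SE 0.16) and -0.53 (SE 0.18), called in both by summed counts. It stood at -0.49 and -0.06 per barcode. A peak with no gene named here (chr8:22423332-22423532) was at -0.93 (SE 0.20) and -0.78 (SE 0.23), called in both by summed counts. Per barcode it was at -0.37 and -0.14, with no call in either line (limma). MBNL1, FUT11, this site, RAD23B, KYAT1/LRRC8A and SRSF6 (described below with its overlapping window) make up the 6 called below in both lines. By the mean count per barcode, 2 of these 6 calls were kept in SW1353 (limma).

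Silent peaks were taken as those nearest to 0 among peaks with a standard error below the median. In TC28a2 the first 3 lay at CHST12, a chondroitin sulfotransferase gene (chr7:2443448-2443648), at GYG1, which primes glycogen synthesis (chr3:148709383-148709583), and at a site with no gene named here (chr19:47365482-47365682). The CHST12 peak gave 0.05, 0.08 and -0.09 in TC28a2 and 1.16, 1.22 and 1.15 in SW1353. GYG1 gave 0.06, 0.04 and -0.08 against 1.13, 0.84 and 1.18. The unnamed site gave -0.05, 0.06 and 0.03 against 1.46, 0.99 and 1.18. All 3 were thus at the level of scrambled variant sites in TC28a2 and about a doubling above it in SW1353. The scrambled version of the CHST12 peak itself stood at 1.14 in SW1353, beside 1.13 for the native peak. Native minus scrambled was 0.04, -0.07 and -0.01 in the replicates, so CHST12 was not above its own scrambled sequence. Per barcode, CHST12 was at 0.21 and 0.40, GYG1 at 0.20 and 0.25 and the unnamed site at 0.14 and 0.37.

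No peak with so small an error lay as near to 0 in SW1353. The nearest were at ZFAND5, a zinc finger gene (chr9:74979628-74979828), at 0.27 (SE 0.10, edgeR adjusted p = 0.0511), at CKAP4 (chr12:106642393-106642593), a membrane receptor gene, at 0.49 (SE 0.10), and at SLC66A2 (chr18:77711384-77711584), a transporter gene, at 0.52 (SE 0.10). The last 2 were called above scrambled variant sites. With scrambled cartilage peaks as 0, ZFAND5 stood at -0.68, CKAP4 at -0.46 and SLC66A2 at -0.44. The mean count per barcode put them at -0.39, -0.07 and -0.18, so ZFAND5 was near 0 by the summed counts and the scrambled variant sites alone.

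Recalled hg19 positions of genes in 4 lists were set beside the 998 peaks. None of 18 cartilage matrix genes had a peak, and of 15 growth plate signalling genes 1 did, TGFBR2. Among 16 chondrocyte transcription factors, 2 had one, ATF4 and HIF1A. Of 84 widely expressed genes 9 did. These are counts of peaks in the library and not of activity, and a gene whose peaks lie outside the recalled span would be missed.

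ATF4, a stress-response activator that acts in chondrocyte maturation, had an active peak (chr22:39916014-39916214). Its replicates were 1.26, 1.23 and 1.28 in TC28a2 and 1.91, 1.88 and 1.94 in SW1353, with the smallest SD of the 40 named peaks in each line (0.0263 and 0.0283). The fitted activities were 1.25 (SE 0.09) and 1.86 (SE 0.08), called in both. Per barcode they were 1.31 and 1.18.

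TGFBR2 is the type II receptor for TGF-beta, a signal that holds back chondrocyte hypertrophy. The peak there (chr3:30648279-30648479) gave 0.16, -0.03 and -0.14 in TC28a2, with no call, and 0.82, 0.83 and 0.77 in SW1353. Its SW1353 activity of 0.75 (SE 0.09) was called above scrambled variant sites but turned to -0.01 per barcode and to -0.20 with scrambled cartilage peaks as 0. HIF1A, the oxygen-sensing factor of the growth plate, had few barcodes at its peak (chr14:62163350-62163550), 38 to 71 in TC28a2 DNA. It gave -0.88, 1.01 and -0.17 there and -0.77, -0.45 and 0.04 in SW1353. With such a spread neither line was called, and the peak cannot be placed above or below 0.

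The 9 peaks at widely expressed genes lay between -0.15 and 2.88 in TC28a2, and SW1353 had them between 0.65 and 3.35. TPT1 and HNRNPA3 were at the top as above, and RPLP2, a ribosomal stalk protein gene (chr11:809517-809717), stood at 1.73 (SE 0.09) and 2.42 (SE 0.10). HNRNPA2B1, an RNA-binding protein gene (chr7:26240586-26240786), stood at 1.71 (SE 0.09) and 1.52 (SE 0.11), below position 500 in both lines. RPL27A (chr11:8704397-8704597) and RPS21 (chr20:60962096-60962296), both ribosomal protein genes, stood at 0.62 and 1.39, and at 0.55 and 1.22. Per barcode, RPL27A was at 0.69 and 0.44 and RPS21 at 0.44 and 0.92.

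The lowest 3 of the 9 in TC28a2 lay at TUBA1B, ACTB and RPS19. ACTB, the beta-actin gene (chr7:5570523-5570723), gave 0.42, 0.18 and 0.42 in TC28a2 and 1.18, 0.91 and 0.93 in SW1353. TUBA1B, a tubulin gene (chr12:49524322-49524522), gave 0.28, 0.28 and 0.53 against 0.49, 0.32 and 1.31. By summed counts both were called above scrambled variant sites in both lines. Per barcode TUBA1B was at 0.30 and 0.45 with no call in either line, and ACTB at 0.40, called, in TC28a2 and 0.07, not called, in SW1353 (limma). Against scrambled cartilage peaks, ACTB lay at 0 within rounding and TUBA1B at -0.30 in SW1353. The RPS19 peak (chr19:42364277-42364477) was at -0.15 (SE 0.14) in TC28a2, without a call, and 1.23 (SE 0.11) in SW1353. Activities of different windows are set beside each other here only as RNA over DNA, which does not depend on gene length.

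Whether the peaks differ between the lines was asked as the interaction of line with RNA over DNA. By edgeR's quasi-likelihood test 576 of 991 peaks were higher in SW1353 and 0 lower, against 12.2% and 0.014% of 7149 elements. At an unadjusted p under 0.05 the counts were 683 and 0, and DESeq2's Wald test called 591 and 0 and limma-voom 549 and 0. The median difference was 0.61, with quartiles at 0.32 and 0.87, compared with 0.18 over all elements. A positive difference was seen in 909 peaks, and such signs were not counted over all elements.

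The number of calls differed with the measure and with the barcode limit. By the mean count per barcode the median difference was -0.04, 434 of 991 peaks were positive, and limma called 0 higher and 0 lower (68 and 94 at an unadjusted p under 0.05). With all elements at position 500 left out, edgeR called 0 of 247 peaks in either direction (68 and 0 unadjusted), with a median difference of 0.30 beside 0.16 over all elements so fitted. Of the 576 called peaks, 28 were among the 247 tested below position 500 in both lines and 548 among the 744 that reached it. Of these 247, 187 had a positive difference by summed counts and 132 per barcode. Below the limit, the number of RNA positions was 96.4% of that of DNA positions in TC28a2 (median of 257 peaks) and 66.0% in SW1353 (319 peaks). In SW1353 the median activity was 0.65 for peaks below the limit and 1.46 for those at it in DNA and RNA, and in TC28a2 0.42 and 0.62. The mean count per barcode leaves out barcodes without RNA, and the median peak had fewer RNA than DNA barcodes in SW1353 only. The parts of the limit and of such barcodes in the line difference were not tested beyond these values.

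**Figure D3:**
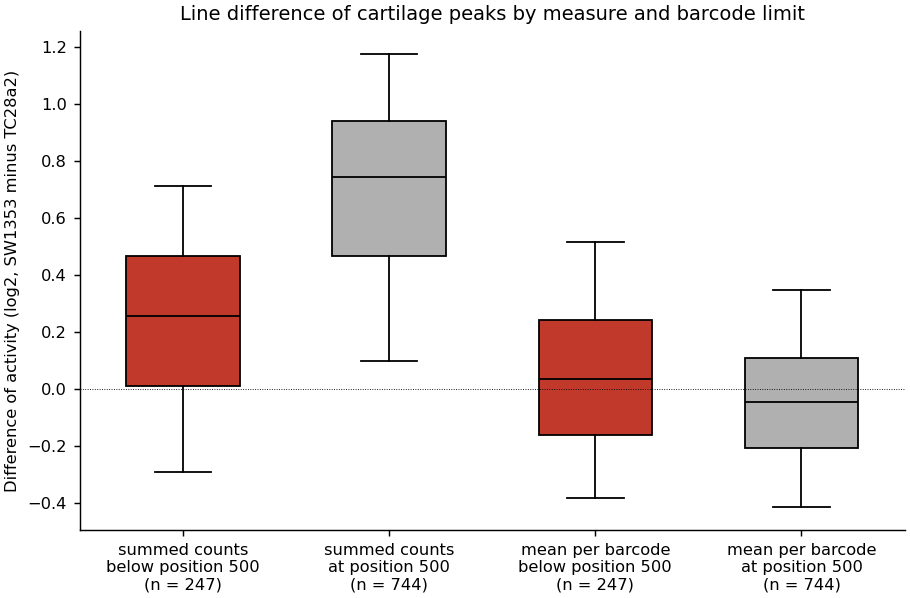
Difference of activity between SW1353 and TC28a2 (y axis, log2) for summed counts and for the mean count per barcode, split into 247 peaks below barcode position 500 in both lines (red) and 744 peaks that reached it (grey); boxes span the quartiles with the median, whiskers the 5th to 95th percentiles. The median is 0.74 for summed counts at the limit, 0.25 below it, and 0.03 and -0.05 per barcode below and at the limit.

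The largest difference was at CIZ1, a gene for a nuclear zinc finger protein of DNA replication (chr9:130953739-130953939). It gave 0.54, 0.74 and 0.82 in TC28a2 and 2.48, 2.56 and 2.35 in SW1353. The lines lie far apart, and the fitted difference was 1.74 (SE 0.12, edgeR adjusted p = 5.63e-06). By the mean count per barcode it was 0.63, still in the same direction but without a call.

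TMEM179B (chr11:62554513-62554713), a membrane protein gene, gave 0.19, 0.12 and 0.13 against 2.10, 1.29 and 1.85, a difference of 1.58 (SE 0.17). RPS19 gave 0.19, -0.16 and -0.44 against 1.59, 1.26 and 1.00, a difference of 1.40 (SE 0.18). Both were thus near the scrambled level in 1 line and well above it in the other. Per barcode the differences were 0.70 and 0.49.

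The other 3 of the 6 largest differences were of peaks active in both lines. At ZNF25, a zinc finger gene (chr10:38265210-38265410), the replicates were 1.81, 1.58 and 1.30 against 3.15, 3.00 and 2.90. At BZW1, a regulator of translation start (chr2:201676146-201676346), they were 0.99, 1.32 and 1.00 against 2.69, 2.46 and 2.47. At HNRNPL, a splicing factor gene (chr19:39339918-39340118), they were 1.16, 0.98 and 1.08 against 2.61, 2.42 and 2.50. The differences were 1.43 (SE 0.13), 1.42 (SE 0.13) and 1.42 (SE 0.12), and per barcode 0.46, 0.46 and 0.58. All 6 peaks were at position 500 in DNA and RNA of both lines. No peak was called lower in SW1353, so none is named.

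SW1353 carried scrambled versions of some peaks, and no source used here says how these were made. For 96 peaks both versions were tested. The native peak was above its scrambled version in 3 of 3 replicates for 48 peaks and below in 3 of 3 for 24, and 24 were mixed. Medians were 1.17 for native and 0.96 for scrambled sequences, and the median difference was 0.19. Per barcode the counts were 43 and 25, with a median difference of 0.09. No test was run on these counts.

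Among single pairs, chosen here after their values were seen, HNRNPA3 exceeded its scrambled version by 2.32, 2.71 and 2.01 in the replicates. The TPT1 peak exceeded it by 1.98, 2.13 and 1.71, and the METTL23/JMJD6 peak by 1.84, 2.20 and 1.94. SEMA4C, a semaphorin gene (chr2:97534995-97535195), had a native activity of 1.81 and a scrambled one of -0.15. In 14 pairs the native peak was higher by more than 1, all replicates of the pairs named here being on the same side.

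The reverse was seen at RAD23B, where the native peak was at -0.76 and its scrambled version at 0.69. The differences by replicate were -1.05, -1.44 and -1.88, and the mean per barcode was -0.94. LARP1, a gene for a regulator of ribosomal protein translation (chr5:154135615-154135815), was at 0.66 and its scrambled version at 1.88. BNIP2, a BCL2-interacting protein gene (chr15:59981185-59981385), was at 1.24 against 2.27. In these 3 pairs the scrambled sequence was higher in all replicates, and by more than 1 in the fitted values. Per barcode, 0 pairs had the scrambled sequence higher by more than 1 (LARP1 -0.79, BNIP2 -0.92), and 11 had the native peak higher by more than 1.

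**Figure D4:**
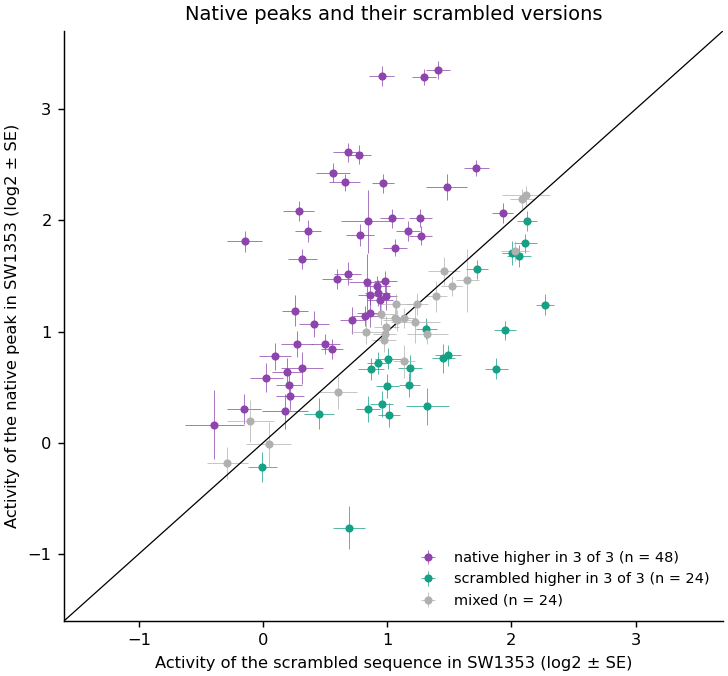
Activity in SW1353 of 96 native cartilage peaks (y axis) and of their scrambled versions (x axis), log2 ± SE; purple, native higher in all 3 replicates (48), green, scrambled higher in all 3 (24), grey, mixed (24). Points on both sides of the line of equality are seen, with the largest gaps above it.

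SW1353 also carried bone and muscle peaks, and some windows overlapped. Of the 998 cartilage peaks, 115 shared at least 1 bp with a bone window and 87 with a muscle window, and 17 with both. With at least 100 bp shared the numbers were 49 and 43. Peaks that overlapped a bone window had a median of 0.65 in TC28a2 and 1.27 in SW1353, those with a muscle window 0.71 and 1.34, and those with neither 0.56 and 1.19. These medians lie close together against quartiles that span more than 0.7 in each line.

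Overlapping windows read the same genomic site at different offsets in the same cells. With 150 bp or more shared, the activities of 54 pairs in SW1353 had a median gap of 0.22, 46 were within 0.5 and the Pearson correlation was 0.86. With at least 100 but under 150 bp shared (36 pairs) the median gap was 0.41 and the correlation 0.48, with 50 to 99 bp (54 pairs) 0.60 and 0.45, and with 1 to 49 bp (56 pairs) 0.63 and 0.21. The pairs share libraries and some share a peak, and no test was made.

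**Figure D5:**
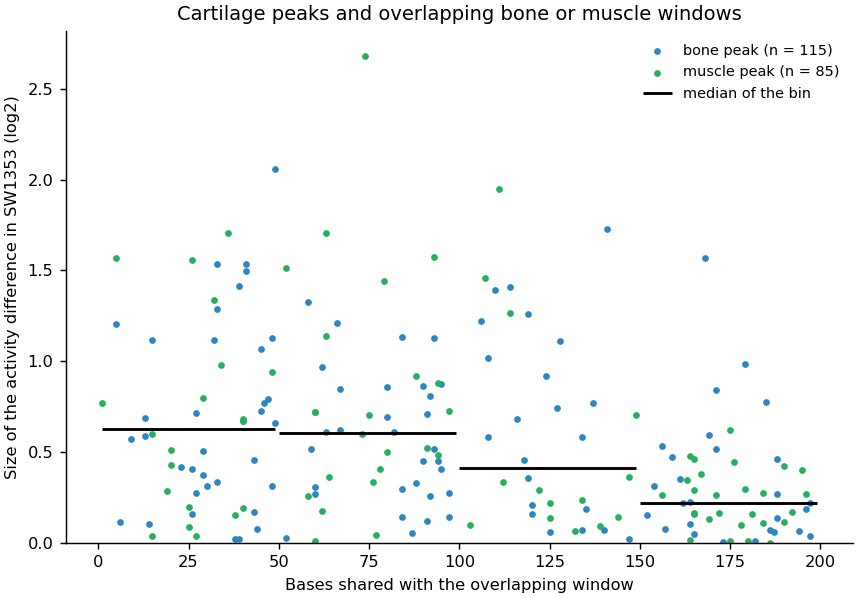
Size of the activity difference in SW1353 (y axis, log2) between a cartilage peak and an overlapping bone (blue, 115 pairs) or muscle (green, 85 pairs) window, by the number of bases they share (x axis); each point is a pair and black lines are the medians of 4 bins. The medians fall from 0.63 at under 50 shared bases to 0.22 at 150 or more, with single pairs above 1 throughout most of the range.

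A few pairs differed widely although they shared most of their sequence (chosen after their values were seen). SRSF6 encodes a splicing factor, and its cartilage peak (chr20:42086596-42086796) was at -0.39 (SE 0.11), while a bone window sharing 141 bp (chr20:42086537-42086737) was at 1.34 (SE 0.11). At HSPA8, a heat shock protein gene, the cartilage peak (chr11:122933328-122933528) was at 1.19 (SE 0.14) and a bone window sharing 168 bp (chr11:122933360-122933560) at -0.38 (SE 0.13). Per barcode these gaps were -1.02 and 0.84.

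UBE2D3, a ubiquitin-conjugating enzyme gene, gave 2.26 (SE 0.12) at its cartilage peak (chr4:103747858-103748058) and 0.32 (SE 0.17) in a muscle window sharing 111 bp (chr4:103747769-103747969). At MAT2A, which makes S-adenosylmethionine, the cartilage peak (chr2:85765983-85766183) was at 1.35 (SE 0.10) and a bone window sharing 110 bp (chr2:85766073-85766273) at 2.74 (SE 0.07). Of 90 pairs with at least 100 shared bp, 11 differed by more than 1. Per barcode 5 did, and the sign was the same in all 11.

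Neighbouring peaks could also differ. Only 8 pairs of cartilage peaks lay within 5 kb of each other. At HMGB1, a chromatin protein gene, a peak at chr13:31037855-31038055 stood at -0.07 in TC28a2 and -0.47 in SW1353, and one 1737 bp away (chr13:31039792-31039992) at 0.66 and 1.51. At HNRNPL the peak named above and one 2369 bp away (chr19:39342487-39342687) stood at 1.07 and 1.08 in TC28a2 and at 2.46 and 1.74 in SW1353.

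The number in a peak's name, whose meaning no source used here states, had no visible relation to activity. With the peaks in 4 groups of like size by that number, TC28a2 medians lay between 0.53 and 0.61 and SW1353 medians between 1.21 and 1.22, with Spearman correlations of -0.03 and -0.0009 across 991 peaks. By chromosome, the 20 peaks of chromosome 13 had the lowest median in both lines, 0.14 and 0.41, although TPT1 is among them. Of these 20, 7 were called above in TC28a2 and 11 in SW1353. At position 500 were 45% of them in TC28a2, beside 74.8% of all peaks tested. Chromosome 18 had the highest median in TC28a2, 0.95 over 11 peaks.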

How the data were processed

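The authors deposited whole-number counts per barcode, without normalization, for each element, line, molecule and replicate. The submitters' processing notes name hg19 as the build. No source used here states how barcodes were cleaned and counted, or whether the counts are of molecules or reads. Counts were summed over the barcodes of an element. RNA was tested against DNA with edgeR 4.0.16 (quasi-likelihood, two-sided, TMM, R 4.3.3) over all elements, with the replicate as a block, since DNA and RNA came from the same cells per the labels. Same-numbered pairs did not stand apart in the check of this pairing. Deviations of same-numbered DNA and RNA correlated at -0.0751 to 0.0578 in TC28a2 and 0.0838 to 0.185 in SW1353. Those of differently numbered DNA and RNA correlated at -0.112 to 0.106 and -0.349 to 0.271. Adjustment was by Benjamini-Hochberg with a threshold of 0.05. Replicate values used a pseudocount of 0.5.

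Peaks were named by rule: in each line the 8 highest and 5 lowest past the threshold and the 3 nearest 0 among those with a standard error under the median, the 6 largest differences each way past the threshold, peaks sharing at least 100 bp with a variant element (0 found, taking these as centred on the variant), and peaks at listed genes. Members and lists were chosen with earlier results of these data known. Gene positions are from general knowledge of hg19, so exons, introns and UTRs were not assigned. Alternatives used DESeq2 1.42.0 and limma 3.58.1. On simulated counts the tests recovered 86%, 78% and 58% of log2 changes of 1 in TC28a2, SW1353 and the difference, and 38%, 30% and 11% of changes of 0.5, with 3.88%, 12.9% and 4.17% of calls false.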

Additional observations from a re-analysis of the deposited data

Results flagged for a closer look

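By the test of the difference itself, made for each element, 576 of 991 cartilage peaks were higher in SW1353 than in TC28a2 and 0 lower. Over all 7149 elements tested the shares were 12.2% and 0.014%. The 6 with the largest differences were at CIZ1 (1.74), TMEM179B (1.58), ZNF25 (1.43), BZW1 (1.42), HNRNPL (1.42) and RPS19 (1.40). All 6 were at barcode position 500, and none was called by the mean count per barcode. The part of the limit was not tested further.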

How the results depend on the processing

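Under DESeq2's size factors, its Wald test, limma-voom, either barcode minimum and leaving out the highest barcode, each count stayed within 1.5 times of that reported. Pairing of DNA and RNA mattered little: with no replicate block the counts were 684 above and 34 below in TC28a2, 845 above and 8 below in SW1353, and 580 higher in SW1353 than in TC28a2. Leaving out 1 replicate gave 588 to 609 above and 17 to 24 below in TC28a2, 3 to 7 below in SW1353, and 404 to 514 higher in SW1353. The 17 is without replicate 2 of TC28a2 and the 3 without replicate 3 of SW1353. Without elements at position 500, 126 peaks were above and 13 below in TC28a2, 198 above in SW1353, and 0 higher in SW1353, with fewer peaks tested. With the mean count per barcode, 11 were below in TC28a2, 477 above and 3 below in SW1353, and 0 higher in SW1353. With the median of all elements as 0, 65 were below in TC28a2 and 48 in SW1353, and with scrambled cartilage peaks as 0, 480 were above and 223 below in SW1353.

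By the mean count per barcode the median line difference was -0.0355, and among called differences the sign turned at TPT1 (-0.0286), RC3H1 (-0.11), ASPSCR1 (-0.12), HNRNPA3 (-0.0897), RBM33 (-0.27), DDX31/GTF3C4 (-0.28), BCL2L13 (-0.21), GDI2 (-0.0415), RPLP2 (-0.14), ATF4 (-0.0928), RPL27A (-0.21), ACTB (-0.29), TGFBR2 (-0.0870) and SLC66A2 (-0.10). Called SW1353 activity turned to -0.0732 at CKAP4, -0.00513 at TGFBR2 and -0.18 at SLC66A2. With scrambled cartilage peaks as 0 it turned to -0.46 at CKAP4, -0.30 at TUBA1B, -0.20 at TGFBR2 and -0.44 at SLC66A2, uncalled ZFAND5 and OGFR turned to called values of -0.68 and -0.73, and at ACTB the activity in SW1353 of peak chr7:5570523-5570723 turned to -0.000495. The cause was not tested. In every alternative but the one without elements at position 500, 443 calls above and 8 below were kept in TC28a2, 431 and 1 in SW1353, and 0 line differences. Of 1516 values for single named peaks, 1371 kept direction and side of the threshold, 73 lost and 11 gained a call in the same direction, and 24 turned with a call. Another 37 turned with no call under either setting, among them per barcode ZFAND5 (-0.39) and OGFR (-0.35) in SW1353 and the line difference of CKAP4 (-0.37). The per-barcode values of native against scrambled pairs and of overlapping windows were added after the data were seen.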
